A study of Mus musculus with 2 samples.

Results

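Glycolysis is represented here by 10 mouse genes that encode enzymes of the pathway, Hk1, Hk2, Gpi1, Pfkl, Pfkm, Pfkp, Aldoa, Pgk1, Pkm and Ldhb, and by every transcript that the expression table lists under these names. They were taken by gene name and comprise 10 of 51804 gene names and 90 of 128603 transcripts. RNA was sequenced from brains of C57BL/6 mice (C57BL/6J in the methods of the study) at postnatal day 0, in 1 library of mice that inherited a Mir125b-2 knockout allele from the mother and a normal allele from the father (maternal knockout, m-/p+) and 1 library of wild-type mice (m+/p+). Each library was made from the total RNA of 6 brains, mixed in equal amounts before ribosomal RNA removal. The tissue label reads whole brain, whereas the extraction protocol speaks of hippocampus, and a midbrain and hindbrain gene, En1, stood at 2.48 FPKM in the maternal knockout library and 2.23 FPKM in the wild-type library, beside Prox1, a marker of the dentate gyrus, at 6.38 and 6.23 FPKM. Other genes listed as outside the forebrain were lower in the maternal knockout. Barhl1 was at 6.35 and 7.06 FPKM, Pax2 at 0.387 and 0.923 FPKM, and Hoxb4 at 0.520 and 0.781 FPKM. The last, Hoxc8, was at 2e-05 FPKM in both. Values are FPKM, fragments scaled to the length of the transcript and the size of the library, so that levels are per length and can be set side by side between genes. With 1 pooled library per genotype there was no replicate, so no difference below has a replicate error or a test. Most counts past a stated fold were instead read against the share of all genes or transcripts past that fold. Other differences, such as those of shares and marker sums, are given as values only.

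Glycolysis splits glucose into pyruvate in the cytosol and yields ATP and NADH, and the developing brain draws on it for energy and for the building blocks of growing cells. Hexokinases trap glucose as glucose 6-phosphate, glucose-6-phosphate isomerase turns this into fructose 6-phosphate, and phosphofructokinases commit it to the pathway. Aldolase splits the sugar, phosphoglycerate kinase and pyruvate kinase make ATP, and lactate dehydrogenase converts pyruvate and lactate into each other. Several steps have isozymes encoded by separate genes, or isoforms spliced from 1 gene.

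The mature microRNA of the knocked-out locus, which Mir125b-1 also encodes, and its match among the enzymes are shown first, because a single gene of the 10 carried one. The seed of mmu-miR-125b-5p, its bases 2 to 8, is in capitals, and so are the letters complementary to it in the 3′ untranslated region of transcript Hk2-201.
mmu-miR-125b-5p: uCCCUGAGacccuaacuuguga
Hk2-201 site: gaactcgaccaaacCTCAGGGg
The microRNA sequence is that of RefSeq (GRCm38.p6, chr16:77646279-77646300, plus strand). The 7-base match CTCAGGG, searched on the transcript strand of annotated 3′ untranslated regions, lay at chr6:82726064-82726070 on the minus strand (GRCm38), 1240 bases into a 3′ untranslated region of 2285 bases. The same letters were present in 21.3% of 2177 genes with a 3′ untranslated region of similar length (within 25%), and in 14.3% of 12512 genes irrespective of length. The leading coding transcripts of the other members held no match in regions of 185 bases (Aldoa) to 1692 bases (Pfkp). Such a match is a description of letters and not evidence of binding.

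The microRNA itself could not be used to check the genotypes, since Mir125b-2 and its paralog Mir125b-1 were listed at the floor of the table, 1e-05 FPKM, in both libraries. The host transcript of Mir125b-2 on chromosome 16, Mir99ahg, stood at 35.7 FPKM in the maternal knockout library and 28.1 FPKM in the wild-type library, a ratio of 1.27. Of all genes with a mean of at least 1 FPKM, 9.71% were more than 1.2-fold higher. Of 4233 genes at 20 FPKM or more, as Mir99ahg was, 6.59% differed by more than 1.2-fold in either direction. Summed marker levels of neurons were 1640 FPKM in m-/p+ and 1628 FPKM in m+/p+ brains, and those of astrocytes and radial glia 673 and 682 FPKM in the same order. Among 10 marker lists the lowest ratios of the maternal knockout over wild type were those of dividing cells (0.883), genes outside the forebrain (0.886) and endothelium (0.893), and the highest that of skeletal muscle (1.14, with sums of 3.66 and 3.22 FPKM). The muscle ratio came from Acta1 alone, at 3.05 FPKM in m-/p+ and 2.17 FPKM in m+/p+ brains. Ckm, Myh3 and Tnnt3 were lower in the maternal knockout and Myh8 was level, all below 1 FPKM. In pooled tissue RNA, fewer cells of a type and less RNA per cell cannot be told apart, and the part of these markers in the results below was not tested.

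The level of the pathway was nearly the same in both libraries. Summed over the 10 genes, FPKM was 961 in m-/p+ and 969 in m+/p+ brains, a ratio of 0.991. All 10 genes held the same rank in both libraries, with Aldoa highest, followed by Pkm, Pfkp, Ldhb, Gpi1, Pgk1, Hk1, Pfkm, Pfkl and Hk2. On the log2 scale after adding 0.1 FPKM to both sums, 5 genes were above wild type and 5 below, with a median of -0.005, while the median over all 15686 genes with a mean of at least 1 FPKM was 0.004. Differences past 1.1-fold were found for 3 of the 10 genes, against 41% of those 15686 genes. Hk2 and Ldhb were higher in the maternal knockout, against 20.8% of genes, and Pfkl was lower, against 20.2%. At 1.2-fold, 1 of the 10 passed, Hk2, against 19.7% of all such genes, and no member reached 2-fold in either direction, against 1.27% of genes higher and 1.19% lower. Among the 9 members at 20 FPKM or more, 2 passed 1.1-fold, against 21.4% of 4233 genes at that level, and 0 passed 1.2-fold, against 6.59%.

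**Figure D1:**
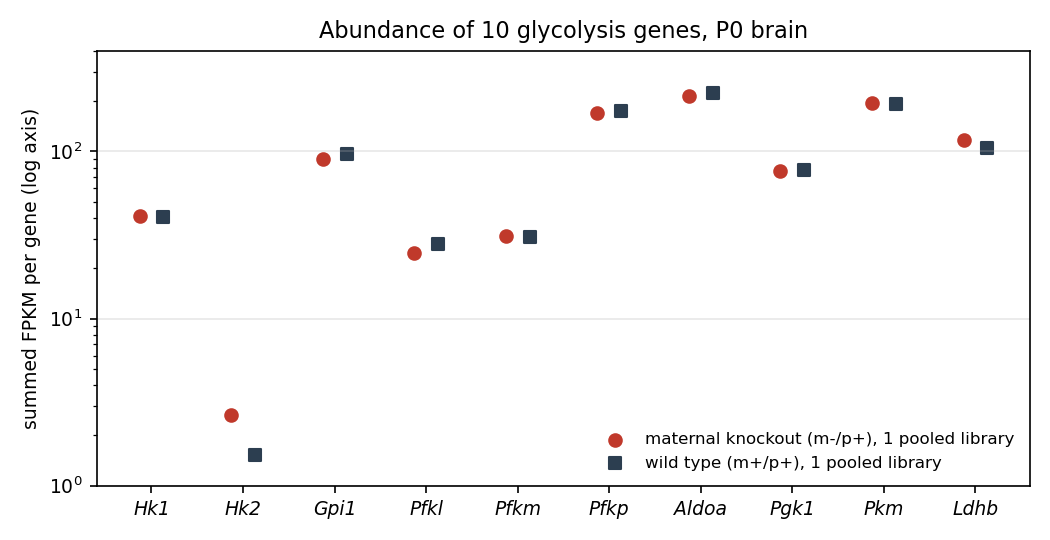
Summed FPKM (log axis) of each of the 10 glycolysis genes in the maternal knockout library (circles) and the wild-type library (squares), 1 pooled library each and therefore without error bars. The pairs nearly coincide except for Hk2, at 2.66 FPKM in m-/p+ and 1.52 FPKM in m+/p+ brains.

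The first step is carried mainly by Hk1, the hexokinase of most brain cells. Hk1 (ENSMUSG00000037012, chr10:62268855-62379908, minus strand) summed to 41.3 FPKM in m-/p+ and 40.3 FPKM in m+/p+ brains, a log2 ratio of 0.03. Of its 20 listed transcripts, 15 were at the floor in both libraries and 3 had a mean above 0.3 FPKM. The main coding transcript, Hk1-202, stood at 39.7 FPKM in m-/p+ and 37.3 FPKM in m+/p+ brains, which was 96.2% and 92.4% of the gene. Another coding transcript, Hk1-201, stood at 0.628 FPKM in m-/p+ and 2.69 FPKM in m+/p+ brains, a ratio of 0.233. The total of the gene thus differed little while this minor transcript was lower. Hk1-201 shares 3495 of its 3639 bases with Hk1-202, so FPKM assigned to it rests on 144 bases of its own. Of these, 75 lie before the first exon that both share, and the others lie further along and are not shown. The coding starts of both are shown from the start codon to the first exon they share (chr10:62315386-62315548, minus strand, GRCm38), whose first 6 bases are in capitals.
Hk1-202 start: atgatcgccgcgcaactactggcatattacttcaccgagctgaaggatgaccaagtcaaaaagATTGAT
Hk1-201 start: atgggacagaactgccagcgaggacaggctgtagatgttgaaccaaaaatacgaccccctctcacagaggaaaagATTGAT
The start codon of Hk1-202 begins at position 62340075 and that of Hk1-201 at 62358362, giving 63 and 75 coding bases before the shared exon. An antisense gene on the opposite strand, Hk1os, was at 0.122 FPKM in m-/p+ and 0.576 FPKM in m+/p+ brains, and whether the counting used strand is not given in the sources used here.

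Hk2, the inducible hexokinase known from muscle, tumours and proliferating cells, had the lowest level of the 10 and the largest relative difference between libraries. Hk2 (ENSMUSG00000000628, chr6:82725025-82774454, minus strand) summed to 2.66 FPKM in m-/p+ and 1.52 FPKM in m+/p+ brains, a ratio of 1.75 and a log2 ratio of 0.77. Among 5346 genes with a mean between 1 and 5 FPKM, 11.9% differed by more than 1.5-fold in either direction and 5.89% were higher by that much. The difference did not come from the transcript that encodes the whole enzyme. Hk2-201 (5513 bases) was lower in the maternal knockout, at 1.15 FPKM, than in wild type, at 1.44 FPKM, a ratio of 0.803. Hk2-202, a processed transcript of 594 bases, stood at 1.33 FPKM in m-/p+ and 0.0797 FPKM in m+/p+ brains, a ratio of 16.6. All 594 bases of Hk2-202 lie within the 3′ untranslated region of Hk2-201, in exons at chr6:82726188-82726309 and chr6:82725062-82725533, and the seed match shown above falls in the intron between them. Without Hk2-202, the gene summed to 1.34 FPKM in m-/p+ and 1.44 FPKM in m+/p+ brains, a log2 ratio of the coding transcripts of -0.10. The direction of the Hk2 difference therefore depended on 1 short transcript: weighting each transcript by its length, which approximates fragments and was added after seeing the data, gave a log2 ratio of -0.14. Under that weighting Hk2-201 made up 87.9% of the gene in m-/p+ and 99.4% in m+/p+ brains, whereas by FPKM it made up 43.4% and 94.7%. A short coding transcript, Hk2-203, was listed at 0.182 FPKM in m-/p+ and at the floor in m+/p+ brains.

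Between the hexokinases, Hk1 held 93.9% of the summed FPKM in m-/p+ and 96.4% in m+/p+ brains, a difference of -2.44 percentage points. With coding transcripts only, these shares were 96.8% and 96.5%, and the difference was 0.30 points in the other direction. Hk1 was thus the prevailing hexokinase transcript in both libraries by either count.

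**Figure D2:**
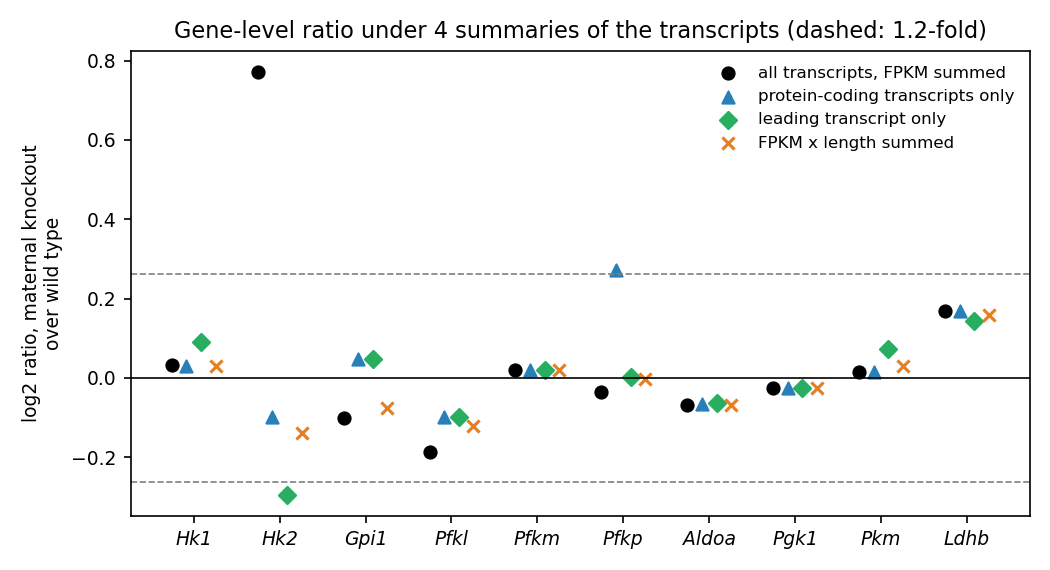
Log2 ratio of maternal knockout over wild type for each gene under 4 ways of summing its transcripts: all transcripts, protein-coding transcripts only, the leading transcript only, and FPKM multiplied by length. Dashed lines mark 1.2-fold. Hk2 moves from 0.77 with all transcripts to -0.10, -0.29 and -0.14 under the others, Pfkp reaches 0.27 with coding transcripts only, and most other genes stay near 0.

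Gpi1, the isomerase of the second step, is a single-gene step. Gpi1 (ENSMUSG00000036427, chr7:34201330-34230336, minus strand) summed to 89.5 FPKM in m-/p+ and 96.1 FPKM in m+/p+ brains, a log2 ratio of -0.10. Its full-length coding transcript, Gpi1-201, was slightly higher in the maternal knockout, at 50.9 FPKM, than in wild type, at 49.3 FPKM. The shortfall lay in transcripts annotated as retaining an intron, which are not expected to encode the whole enzyme. These summed to 36.8 FPKM in m-/p+ and 44.5 FPKM in m+/p+ brains, a ratio of 0.828, and made up 41.2% and 46.3% of the gene. Gpi1-211 was at 18.4 FPKM in m-/p+ and 21.2 FPKM in m+/p+ brains. Gpi1-203 was at 17.4 and 21.1 FPKM, a ratio of 0.824, and was the 1 of 18 member transcripts with a mean above 5 FPKM that was more than 1.2-fold lower, against 8.48% of 11987 such transcripts. The smaller retained-intron transcripts lay in the same direction. Gpi1-204 was at 0.805 FPKM in m-/p+ and 1.47 FPKM in m+/p+ brains, and Gpi1-209 was at 0.256 and 0.701 FPKM. A short processed transcript, Gpi1-202, was at 1.77 FPKM in m-/p+ and 2.32 FPKM in m+/p+ brains.

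The third step, the main point of control of the pathway, has 3 phosphofructokinase genes, named for liver (Pfkl), muscle (Pfkm) and platelet (Pfkp). Together they summed to 226 FPKM in m-/p+ and 233 FPKM in m+/p+ brains. Pfkp held 75.3% of this in m-/p+ and 74.8% in m+/p+ brains, Pfkm 13.8% and 13.2%, and Pfkl 10.9% in m-/p+ brains, 1.14 percentage points less than in m+/p+ brains. The order of the isozymes was therefore the same in both libraries, but it rested on which transcripts were counted. With coding transcripts only, Pfkm was first, with 47.3% in m-/p+ and 47.7% in m+/p+ brains, followed by Pfkl with 31.3% and 34.2% and Pfkp with 21.4% and 18.1%.

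Pfkl (ENSMUSG00000020277, chr10:77986947-78010083, minus strand) was the member with the largest relative shortfall, 24.7 FPKM in m-/p+ and 28.1 FPKM in m+/p+ brains, a log2 ratio of -0.19. Of genes at 20 FPKM or more, 8.39% were lower by over 1.1-fold. Its coding transcript Pfkl-201 was at 20.6 FPKM in m-/p+ and 22.1 FPKM in m+/p+ brains, a ratio of 0.934. In FPKM, a larger part of the shortfall lay in short transcripts. This depended on the measure. Weighted by length, Pfkl-201 made up 94.9% of the gene in m-/p+ and 93.4% in m+/p+ brains, and the log2 ratio of the gene was -0.12. The processed transcript Pfkl-207 (782 bases) was at 1.09 FPKM in m-/p+ and 3.15 FPKM in m+/p+ brains, a ratio of 0.347, and Pfkl-205 (650 bases), annotated as subject to nonsense-mediated decay, was at 0.312 and 0.887 FPKM. The retained-intron transcripts of Pfkl went the other way, with 2.45 FPKM in m-/p+ and 1.99 FPKM in m+/p+ brains. Among them, Pfkl-208 was at 1.05 and 1.08 FPKM and Pfkl-203 at 1.01 and 0.745 FPKM.

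Pfkm (ENSMUSG00000033065, chr15:98092589-98132451, plus strand) had the simplest pattern, with 1 of 2 listed transcripts above the floor. Pfkm-201 was at 31.2 FPKM in m-/p+ and 30.7 FPKM in m+/p+ brains, a log2 ratio of 0.02. Senp1, which overlaps it on the opposite strand, was at 7.21 FPKM in m-/p+ and 8.22 FPKM in m+/p+ brains.

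Pfkp (ENSMUSG00000021196, chr13:6579768-6648777, minus strand) summed to 170.5 FPKM in m-/p+ and 174.7 FPKM in m+/p+ brains, a log2 ratio of -0.04. Nearly all of this was assigned to transcripts annotated as retaining an intron, 156 FPKM in m-/p+ and 163 FPKM in m+/p+ brains, or 91.7% and 93.3% of the gene. This set Pfkp apart from most genes of its level. Among 3854 protein-coding genes at 20 FPKM or more, the median share of FPKM in coding transcripts was 90.3%, and 20 genes (0.519%) had less than 10%, while Pfkp had 8.29% in m-/p+ and 6.68% in m+/p+ brains. Its leading transcript, Pfkp-212, is 8681 bases long with an exon of 7108 bases and stood at 75.5 FPKM in m-/p+ and 75.4 FPKM in m+/p+ brains. Pfkp-210 (702 bases) was at 43.9 FPKM in m-/p+ and 48.1 FPKM in m+/p+ brains, and Pfkp-202 (2680 bases) was at 26.3 and 29.2 FPKM. The longest of the 3 was thus level between libraries and the others somewhat lower. The remaining retained-intron transcripts were low and had no common direction. Pfkp-206 was at 3.21 FPKM in m-/p+ and 3.74 FPKM in m+/p+ brains, Pfkp-204 at 3.07 and 2.74 FPKM, Pfkp-208 at 2.43 FPKM in both, and Pfkp-211 at 1.96 and 1.40 FPKM. The full-length coding transcripts were higher in the maternal knockout, with Pfkp-207 at 7.77 FPKM against 6.23 FPKM in wild type and Pfkp-201 at 5.81 FPKM against 5.45 FPKM. Pfkp-207, with a log2 ratio of 0.32, was the 1 of 18 member transcripts with a mean above 5 FPKM that was more than 1.2-fold higher, against 9.72% of all such transcripts. Coding transcripts of Pfkp summed to 14.1 FPKM in m-/p+ and 11.7 FPKM in m+/p+ brains, a log2 ratio of 0.27. This includes Pfkp-205 at 0.542 FPKM in m-/p+ and at the floor in m+/p+ brains. Pitrm1, which overlaps Pfkp on the opposite strand, was at 11.8 and 13.8 FPKM.

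Pfkp-201 and Pfkp-207 use alternative exons of 153 bases, shown because they tell the coding transcripts apart. The exon of Pfkp-201 lies at chr13:6593101-6593253 and that of Pfkp-207 at chr13:6597859-6598011 (minus strand, GRCm38), and the 63 bases that differ are in capitals.
Pfkp-201 exon: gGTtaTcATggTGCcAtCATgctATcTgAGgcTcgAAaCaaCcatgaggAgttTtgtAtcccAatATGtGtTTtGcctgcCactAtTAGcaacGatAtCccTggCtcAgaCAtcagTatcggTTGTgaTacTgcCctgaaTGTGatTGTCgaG
Pfkp-207 exon: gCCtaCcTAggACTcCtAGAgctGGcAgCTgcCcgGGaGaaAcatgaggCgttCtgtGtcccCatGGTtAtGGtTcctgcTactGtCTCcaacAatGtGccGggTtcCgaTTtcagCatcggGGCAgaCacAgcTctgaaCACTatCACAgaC
The exons are 58.8% identical. The retained-intron transcript Pfkp-212 also holds the exon of Pfkp-201, so that fragments from this exon could be assigned to either.

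**Figure D3:**
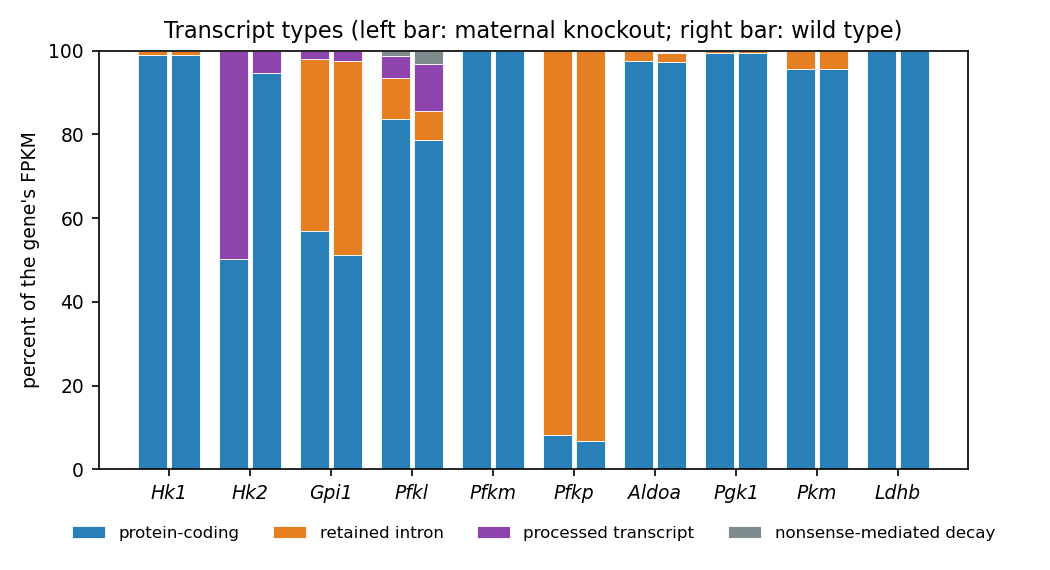
Share of each gene's FPKM (percent) by annotated transcript type, with the maternal knockout in the left bar and wild type in the right bar of each pair. Pfkp is almost wholly retained intron in both libraries, Gpi1 is 41.2% retained intron in m-/p+ and 46.3% in m+/p+ brains, and the coding share of Hk2 is 50.2% in m-/p+ and 94.7% in m+/p+ brains.

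Aldoa, the aldolase that splits fructose 1,6-bisphosphate in most tissues, had the highest level. Aldoa (ENSMUSG00000030695, chr7:126795234-126800751, minus strand) summed to 213 FPKM in m-/p+ and 224 FPKM in m+/p+ brains, a log2 ratio of -0.07, over the 14 transcripts listed under the name. Aldoa-201 carried 94.1% of it in m-/p+ and 93.7% in m+/p+ brains, at 200.7 and 209.7 FPKM. The other transcripts above 1 FPKM were Aldoa-203, at 3.94 FPKM in m-/p+ and 5.01 FPKM in m+/p+ brains, Aldoa-209 at 3.04 and 2.82 FPKM, Aldoa-207 at 2.13 and 2.24 FPKM, and Aldoa-206 at 2.07 and 2.18 FPKM. None of these minor transcripts changed the direction of the sum. The share of Aldoa in the sum of Aldoa and Aldoc, the aldolase of astrocytes, was 75.9% in m-/p+ and 76.0% in m+/p+ brains. Among the minor transcripts, Aldoa-204 was listed at 0.614 FPKM in m-/p+ and at the floor in m+/p+ brains, and Aldoa-213 was at 0.214 and 0.891 FPKM. Aldoa-213 shares 0 bases with Aldoa-201 and, with Aldoa-214, is placed by the GENCODE M21 annotation in a second gene of the same name (ENSMUSG00000114515, chr7:126800790-126809108, minus strand). Without both, the sum was 213 FPKM in m-/p+ and 223 FPKM in m+/p+ brains.

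Pgk1, the X-linked phosphoglycerate kinase of somatic cells, was among the most even members. Pgk1 (ENSMUSG00000062070, chrX:106187100-106203699, plus strand) summed to 76.5 FPKM in m-/p+ and 77.8 FPKM in m+/p+ brains, a log2 ratio of -0.02. A single coding transcript, Pgk1-201, held 99.5% of the gene in m-/p+ and 99.6% in m+/p+ brains. Copies listed under related names held almost no FPKM, with Pgk1-rs7 at 0.159 FPKM in m-/p+ and 0.216 FPKM in m+/p+ brains and Pgk2 at the floor in both. Whether fragments of Pgk1 were assigned to other copies in the genome was not tested.

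Pkm, the pyruvate kinase gene, gives the M1 form of adult neurons and muscle and the M2 form of embryonic and dividing cells by choice between exons of equal length. Pkm (ENSMUSG00000032294, chr9:59656368-59679375, plus strand) summed to 194 FPKM in m-/p+ and 192 FPKM in m+/p+ brains, a log2 ratio of 0.01. The exons that define the forms are shown with the 64 of 167 bases that differ in capitals, the M1 exon at chr9:59675029-59675195 and the M2 exon at chr9:59675568-59675734 (GRCm38).
Pkm M1 exon: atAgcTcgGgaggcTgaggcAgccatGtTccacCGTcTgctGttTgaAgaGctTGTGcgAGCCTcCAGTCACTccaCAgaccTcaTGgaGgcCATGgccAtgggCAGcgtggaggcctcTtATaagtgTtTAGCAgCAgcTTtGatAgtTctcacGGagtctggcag
Pkm M2 exon: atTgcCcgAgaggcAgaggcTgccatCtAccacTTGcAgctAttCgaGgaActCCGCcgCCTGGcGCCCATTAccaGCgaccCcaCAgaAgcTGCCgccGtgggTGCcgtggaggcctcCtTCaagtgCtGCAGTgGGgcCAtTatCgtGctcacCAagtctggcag
The M2 transcript Pkm-201 was at 117 FPKM in m-/p+ and 112 FPKM in m+/p+ brains, a ratio of 1.05. The M1 transcript Pkm-202 was at 65.8 FPKM in m-/p+ and 68.3 FPKM in m+/p+ brains, a ratio of 0.964. M2 was thus the more abundant form in both libraries, with 63.2% of M1 and M2 transcripts in m-/p+ and 61.0% in m+/p+ brains, a difference of 2.22 percentage points. With coding transcripts only, the difference was 2.04 points. Pkm-202 shares 1874 of its 2041 bases with Pkm-201 and has 167 bases outside it. The split between the forms thus rests on how fragments of shared bases were divided. The retained-intron transcripts Pkm-205, at 5.91 FPKM in m-/p+ and 5.29 FPKM in m+/p+ brains, and Pkm-203, which holds the M1 exon, at 2.52 and 3.10 FPKM, made up 4.35% and 4.37% of the gene. Shorter coding transcripts had no common direction, with Pkm-209 at 1.07 FPKM in the maternal knockout against 1.94 FPKM in wild type, Pkm-204 at 0.538 FPKM against 1.12 FPKM, and Pkm-206 at 0.578 FPKM against 0.496 FPKM. Of 7 genes of factors that choose between these exons, 6 had a mean of at least 1 FPKM, and 0 of the 6 passed 1.2-fold. All 6 lay above 20 FPKM, and 6.59% of 4233 genes at 20 FPKM or more passed 1.2-fold in either direction. A count of 0 of 6 is therefore close to the share of genes at that level. Ptbp1, which promotes the M2 form, was at 20.5 FPKM in m-/p+ and 22.5 FPKM in m+/p+ brains, and its neuronal paralog Ptbp2 was at 127 and 121 FPKM.

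Ldhb, the heart-type subunit of lactate dehydrogenase, was the abundant member with the largest increment. Ldhb (ENSMUSG00000030246, chr6:142490249-142507957, minus strand) summed to 117 FPKM in m-/p+ and 104 FPKM in m+/p+ brains, a ratio of 1.12 and a log2 ratio of 0.17. Of 4233 genes at 20 FPKM or more, 13% were higher by over 1.1-fold. Unlike that of Hk2, this difference was shared by its 3 transcripts with a mean above 0.3 FPKM. Ldhb-201, the full-length transcript, was at 72.8 FPKM in m-/p+ and 65.9 FPKM in m+/p+ brains, a ratio of 1.11. Ldhb-202, whose 437 bases all lie within exons of Ldhb-201, was at 42.5 and 37.2 FPKM, a ratio of 1.14, and Ldhb-204 was at 1.61 and 0.888 FPKM. Fragments of the bases in common could be assigned to Ldhb-201 or Ldhb-202, so their ratios are not separate observations. Ldhb-203 was at 0.137 FPKM in m-/p+ and 0.145 FPKM in m+/p+ brains. Ldha, the muscle-type subunit, lay in the opposite direction, at 122 FPKM in m-/p+ and 130 FPKM in m+/p+ brains. Ldhb therefore made up 49.0% of both subunits in m-/p+ and 44.5% in m+/p+ brains, a difference of 4.47 percentage points, the largest difference among the 9 isozyme and isoform shares computed, and 4.46 points with coding transcripts only.

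Across all 90 transcripts, 33 were at the floor in both libraries, 6 in wild type only and 3 in the maternal knockout only, and 46 had a mean above 0.3 FPKM. Of these 46, 2 were more than 2-fold higher in the maternal knockout (Hk2-202 and Aldoa-204), against 9.43% of 50873 transcripts of the whole table, and 6 were more than 2-fold lower (Hk1-201, Pfkl-207, Pfkl-205, Aldoa-213, Gpi1-209 and Pkm-204), against 8.93%. With a mean above 1 FPKM, 0 of 35 were higher, against 4.73%, and 2 of 35 were lower, against 3.86%. All 8 had a mean under 5 FPKM, and Hk1-201 and Pfkl-207 were the only ones outside the 5th to 95th percentile of all transcripts of their level, whose lower bound for means of 1 to 5 FPKM was -0.98 on the log2 scale. The 11 transcripts with means between 20 and 100 FPKM ran from -0.15 to 0.19. The same leading transcript was found in both libraries for 9 of the 10 genes, the exception being Hk2.

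**Figure D4:**
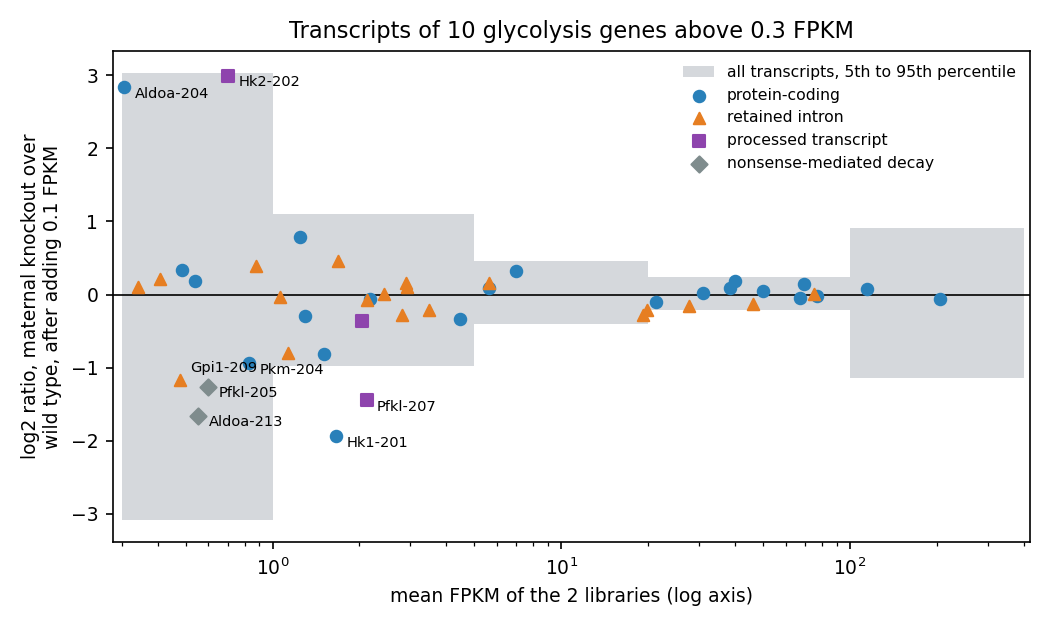
Log2 ratio of maternal knockout over wild type (after adding 0.1 FPKM) against the mean FPKM of the 2 libraries (log axis) for the 46 member transcripts above 0.3 FPKM, coloured by annotated type. Grey boxes span the 5th to 95th percentile of all transcripts in each range of level, and the 8 transcripts past 2-fold are named, all at the low end.

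By annotated type, coding transcripts of the 10 genes summed to 746 FPKM in m-/p+ and 738 FPKM in m+/p+ brains, a ratio of 1.01. Retained-intron transcripts summed to 210 FPKM in m-/p+ and 224 FPKM in m+/p+ brains, a ratio of 0.939, and without Pfkp to 53.6 and 60.6 FPKM, a ratio of 0.885. Over all protein-coding genes the ratio of retained-intron FPKM was 1.01. The lower retained-intron level of the members was carried by Gpi1 and Pfkp, while Pfkl, Aldoa and Pkm had ratios of 1.23, 1.02 and 1.01.

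Related genes were taken as lists, and their medians lay near 0 as well. Of 22 other glycolysis genes, 13 reached a mean of 1 FPKM, 2 were more than 1.2-fold higher and 1 lower, with a median log2 ratio of 0.01, against 9.71% and 9.96% of all genes. Eno3, the muscle enolase, was at 2.96 FPKM in m-/p+ and 2.30 FPKM in m+/p+ brains. Gapdh was at 9.71 FPKM in m-/p+ and 14.8 FPKM in m+/p+ brains. This level was far below that of Tpi1, and whether fragments of Gapdh were assigned to copies elsewhere in the genome was not tested. Tpi1, triosephosphate isomerase, was at 90.0 FPKM in m-/p+ and 97.9 FPKM in m+/p+ brains, and Eno1 held 70.9% and 72.0% of the sum of Eno1 and Eno2. Among 12 transporters of glucose and lactate, 2 were more than 1.2-fold higher (the glucose transporters Slc2a4 and Slc2a8) and 1 lower (Slc2a12), all below 8 FPKM. Of 20 regulators and genes of pyruvate entry at 1 FPKM or more, Tigar, a fructose-2,6-bisphosphatase, was higher, at 4.15 FPKM in m-/p+ and 3.36 FPKM in m+/p+ brains, and Pdk4, an inhibitor of pyruvate dehydrogenase, was lower, at 0.799 and 1.53 FPKM. G6pdx, the entry enzyme of the pentose phosphate pathway, was the 1 of 7 genes of that pathway past 1.2-fold, at 12.7 FPKM in m-/p+ and 10.1 FPKM in m+/p+ brains. Of 12 targets and regulators of the hypoxia response outside glycolysis, 0 were more than 1.2-fold higher and 2 were lower, Vegfa at 26.6 FPKM in m-/p+ and 34.6 FPKM in m+/p+ brains, and Ankrd37 at 6.18 and 10.3 FPKM. For each of these counts past 1.2-fold, the shares of all genes were again 9.71% higher and 9.96% lower. No gene of these 6 lists with a mean of at least 1 FPKM differed by 2-fold, against 1.27% of all genes higher and 1.19% lower.

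**Figure D5:**
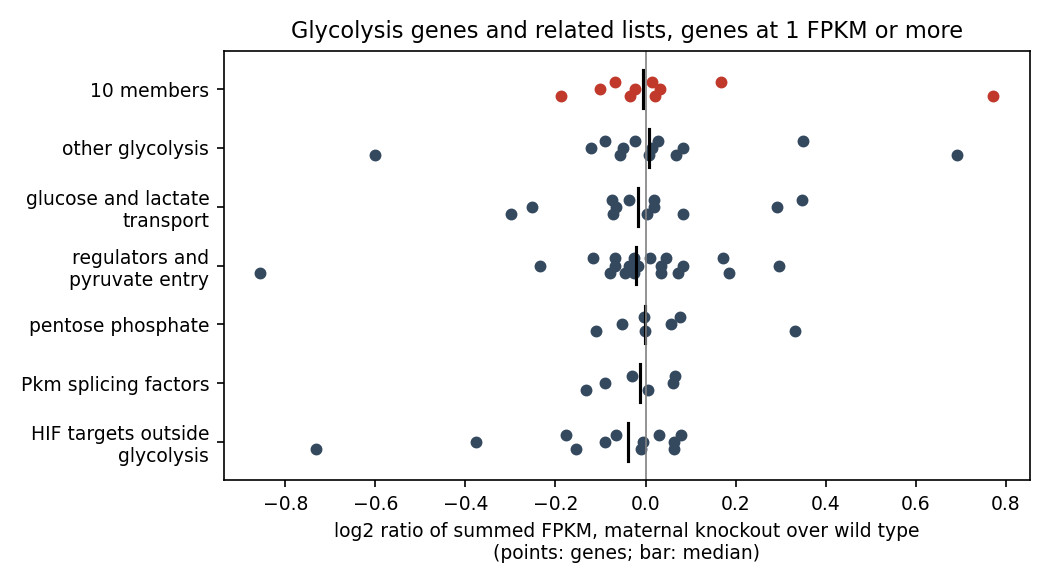
Log2 ratio of summed FPKM, maternal knockout over wild type, for the 10 glycolysis genes (top row) and for genes with a mean of at least 1 FPKM in 6 related lists; each point is a gene and each bar a median. All medians lie between -0.04 and 0.01, and Hk2, at 0.77, is the gene farthest to the right.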

How the data were processed

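Libraries kept strand and were depleted of ribosomal RNA. The authors used Trimmomatic 0.36 for trimming, HISAT2 2.1.0 for alignment to the mouse genome (GRCm38.p5) and Cuffdiff for quantification, and deposited FPKM per Ensembl transcript, in which 1e-05 stands for 0. For Cuffdiff, the version, normalization and use of strand were not given in the sources used here, nor were read counts, so depth and intervals are unknown. The deposited ratio, log2 ratio, p and q columns and a second table of transcripts selected by them were not used.

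FPKM was summed by gene name, and log2 ratios were taken after adding 0.1 FPKM. Transcripts needed a mean of both libraries above 0.3 FPKM and genes a mean of at least 1 FPKM, and calls were past 2-fold or 1.2-fold. Types, exons and 3′ untranslated regions came from GENCODE M21 (GRCm38), which held all 90 member transcripts. 3 of them had other ends in the deposited table. Calculations used Python 3.11.15 and pandas 2.3.3. Only the gene sums and the fold calls were tried on simulated transcripts, with preset folds and no noise.

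All 10 genes were named, with transcripts at 1 FPKM or more in either library and those past 2-fold. Of each related list, the genes named include those highest or lowest in ratio, and 1 such gene is not reported here. The genes and lists were chosen with earlier results of these data known. Alternatives were other pseudocounts and minimums, coding or leading transcripts only, and leaving out values at the floor.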

Additional observations from a re-analysis of the deposited data

How the results depend on the processing

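Over 7 other ways of summing or scaling, 63 of 70 gene-level log2 ratios stayed within 0.1 of the reported value. Much of this count was fixed in advance. Other pseudocounts can hardly move abundant genes, and centring on the median of protein-coding genes subtracts 0.007 from each. Leaving out transcripts under 300 bases removed only member transcripts at the floor. The settings that change which transcripts count, or their weight, are therefore the informative ones. Hk2 reversed, with 0.77 becoming -0.10 with coding transcripts only, -0.29 with leading transcripts only and -0.14 with FPKM weighted by length, the last chosen after seeing the data; under that weighting 0 members passed 1.2-fold in place of 1. Gpi1 turned from -0.10 to 0.05 with coding or leading transcripts only, and Pfkp from -0.04 to 0.27 with coding transcripts only, where it was the 1 member past 1.2-fold. Pseudocount 1 gave 0.54 for Hk2. The share of Hk1 in both hexokinases differed by 0.30 points with coding transcripts and 0.89 points with leading transcripts in place of -2.44, and that of Hk2 by -0.30 and -0.89 points in place of 2.44. The share of Pfkp among phosphofructokinases differed by 3.33 points with coding transcripts in place of 0.52. Member transcripts past 2-fold numbered 8 with a mean above 0.3 FPKM, 2 with a mean above 1 FPKM, 0 with a mean above 5 FPKM and 17 with no minimum. The median change of transcript shares within a gene was 3.06 points with all transcripts and 0.82 points with coding transcripts only. No paired analysis was possible because the labels number no replicates and a genotype had 1 library. Without replicates or read counts, differences of low transcripts cannot be told apart from sampling error. The division of FPKM among overlapping transcripts of Hk1, Hk2, Gpi1, Pfkp, Pkm and Ldhb rests on the estimate of Cuffdiff.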
